A study of Mus musculus with 16 samples.

Results

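The 10 genes described here make proteins of the acrosome and of the sperm surface that meets the egg. They are Acr, Acrbp, Acrv1, Spaca1, Spaca3, Spam1, Zpbp, Izumo1, Adam2 and Adam3, taken as a named list from 21651 genes, and all 10 were found in the authors' annotation. Their chromatin was followed by ATAC-seq, in which the Tn5 transposase inserts adapters where DNA is accessible, in 16 libraries of spermatogenic cells purified from testes of C57BL/6 mice. The spermatogonia came from testes at postnatal day 7 (P7), as a Thy1+ fraction (Thy1) that holds stem cells and progenitors and a differentiating c-Kit+ fraction (cKit). Pachytene spermatocytes (PS), in meiotic prophase, and round spermatids (RS), the haploid cells that build the acrosome, came from adult testes. Each stage was taken from wild-type mice and from mice labelled Scml2-KO, a knockout of a germline Polycomb-related gene, with 2 libraries for each of the 8 groups. The sources used here do not give the allele of the knockout, the purity of the fractions or the number of animals per library. All P7 libraries were spermatogonia and all adult libraries were later cells, so stage and age cannot be told apart between them.

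The acrosome is a secretory vesicle that grows from the Golgi and caps the nucleus of the spermatid. It holds proteases, hyaluronidases and matrix proteins that are exposed when the sperm reaches the egg coat, the zona pellucida. Fusion with the egg membrane then needs surface proteins such as IZUMO1, while ADAM proteins made in the testis are needed for the sperm to pass into the oviduct and to adhere. Many of these genes are transcribed in pachytene spermatocytes or in round spermatids.

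The measurement was a peak in the list that the authors called for each library. A promoter peak was a peak that overlapped 1 kb on either side of the transcription start site (TSS) by at least 1 bp, and where a library held 2 such peaks the strongest is given. The authors' fold enrichment, the pileup at the summit over the background of the list, describes the height of a peak and was not tested. A library without a promoter peak had no peak past the caller's threshold there, which does not show closed chromatin. Over the 16 lists, 295 peaks named 1 of the 10 genes.

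The lists held 17813 to 164060 peaks, and in all 8 groups the list of replicate 1 was the longer. The longest was RS Scml2-KO replicate 1 and the shortest cKit Scml2-KO replicate 2. The Scml2 promoter had a peak in 6 of 8 wild-type and 3 of 8 Scml2-KO libraries, which does not check the knockout since the deleted part is not given. Among cell type markers, all 8 meiotic prophase genes had a promoter peak in each adult library, against 1 to 4 in P7 libraries, and 6 to 10 of 10 spermatid genes had one in adult libraries, against 2 to 4 in P7. A promoter peak is not transcription, and of the 10 spermatogonial markers 4 to 10 had one in P7 libraries and 3 to 8 in adult ones.

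RefSeq promoter windows, from 250 bases before to 50 after the start on GRCm38.p6, were found for 7 of the 10 genes: Acrbp, Acrv1, Spaca1, Spaca3, Spam1, Zpbp and Izumo1. The 250 bases before the start are printed for 6 of them, 5′ to 3′ on the strand of the gene. Acrbp and Spaca3 are shown because they were called with more adult than P7 libraries. Spaca1 is shown for its high peaks in adult cells and Zpbp for its peak in all 16 libraries. Acrv1 is shown for its promoter shared with another gene, and Izumo1 for its cAMP response element. Capitals mark letters that match 1 of 6 motifs searched on both strands.
Acrbp, chr6:125049677-125049926, + strand: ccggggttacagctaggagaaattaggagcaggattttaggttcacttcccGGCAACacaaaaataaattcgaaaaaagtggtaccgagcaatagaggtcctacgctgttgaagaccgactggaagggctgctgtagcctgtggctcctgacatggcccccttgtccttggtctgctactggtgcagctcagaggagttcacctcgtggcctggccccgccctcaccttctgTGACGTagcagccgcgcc
Spaca3, chr11:80858139-80858388, + strand: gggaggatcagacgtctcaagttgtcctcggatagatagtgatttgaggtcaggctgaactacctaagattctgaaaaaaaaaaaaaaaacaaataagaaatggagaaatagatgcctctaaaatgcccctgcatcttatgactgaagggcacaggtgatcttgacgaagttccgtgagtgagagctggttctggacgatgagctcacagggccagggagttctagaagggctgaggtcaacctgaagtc
Spaca1, chr4:34050068-34050317, - strand: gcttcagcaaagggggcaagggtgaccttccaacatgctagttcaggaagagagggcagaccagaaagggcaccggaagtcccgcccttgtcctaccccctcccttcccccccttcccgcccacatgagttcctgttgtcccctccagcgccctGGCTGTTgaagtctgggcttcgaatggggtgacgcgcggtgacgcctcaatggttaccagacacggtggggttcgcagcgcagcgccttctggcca
Zpbp, chr11:11462420-11462669, - strand: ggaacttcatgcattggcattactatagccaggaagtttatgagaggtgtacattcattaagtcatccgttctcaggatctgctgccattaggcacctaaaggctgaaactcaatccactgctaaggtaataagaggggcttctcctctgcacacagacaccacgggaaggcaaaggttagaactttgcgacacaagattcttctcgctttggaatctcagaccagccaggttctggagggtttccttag
Acrv1, chr9:36692970-36693219, + strand: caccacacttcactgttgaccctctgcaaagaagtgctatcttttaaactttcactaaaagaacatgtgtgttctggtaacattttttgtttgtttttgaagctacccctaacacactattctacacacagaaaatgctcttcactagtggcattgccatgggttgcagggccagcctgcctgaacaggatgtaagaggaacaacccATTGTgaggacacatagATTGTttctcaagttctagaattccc
Izumo1, chr7:45621561-45621810, + strand: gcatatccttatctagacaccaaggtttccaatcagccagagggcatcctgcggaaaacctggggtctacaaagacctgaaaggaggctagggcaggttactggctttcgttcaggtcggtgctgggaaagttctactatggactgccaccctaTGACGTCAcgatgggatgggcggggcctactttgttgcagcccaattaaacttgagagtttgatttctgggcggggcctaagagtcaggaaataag

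The motifs were the cAMP response element TGACGTCA (CRE, bound by CREM and related factors), its part TGACGT, which also lies inside every CRE, the MYB letters AACNGNC, the RFX letters GTTGCC, the TATA letters TATAAA and the SOX letters ACAAT. In the whole 300-base window, Izumo1 held the CRE at 96 to 89 bases before the start, a match found in 1.79% of 32851 promoter windows of the table. Acrbp held TGACGT 18 to 13 bases before the start, as did 7.51% of windows anywhere, and the RFX letters on the other strand 199 to 194 bases before it, found in 12.5%. MYB letters, present in 32.8% of windows, lay in Spaca1 at 96 to 90 bases before the start and in Acrbp at 32 to 38 bases after it, in the part not printed. SOX letters, present in 31.0%, occurred at 2 positions in Acrv1 and at 1 in Spam1. TATA letters, present in 13.6%, matched in 0 of the 7 windows, and the windows of Spaca3 and Zpbp held none of the 6 motifs. These matches describe letters, not binding.

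**Figure D1:**
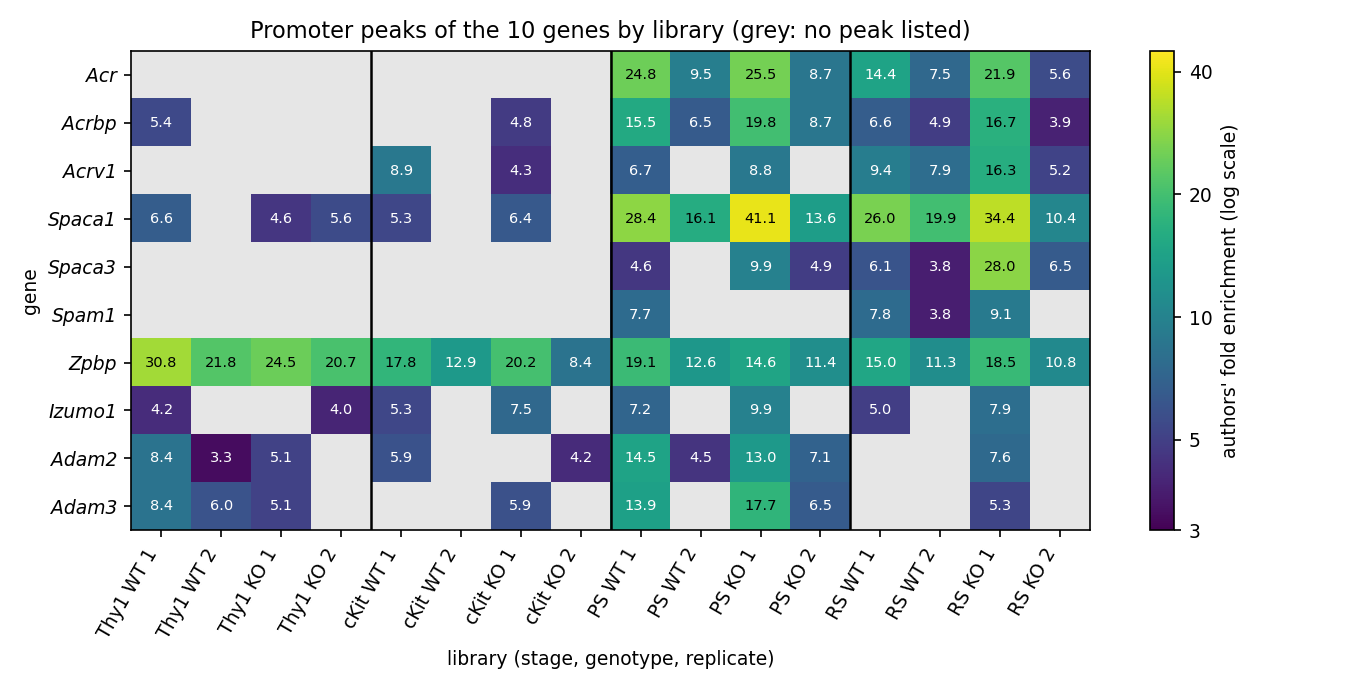
Authors' fold enrichment (colour, log scale, value printed in each cell) of the strongest promoter peak of the 10 genes (vertical) in the 16 libraries (horizontal, WT wild type, KO Scml2-KO, numbered by replicate), with grey where no peak was listed. Acr, Spaca3 and Spam1 are grey in all 8 P7 libraries, Zpbp is coloured in all 16, and the cKit values of Acrv1 belong to peaks that lay 966 and 973 bp upstream of its start.

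Acr and Acrbp, a protease and the protein that binds its precursor, both had a promoter peak in every adult library. Acr encodes acrosin, the trypsin-like protease stored in the acrosome as proacrosin (chromosome 15, TSS at 89568326, + strand, mm10). No Acr promoter peak was listed in the 8 P7 libraries. In PS its fold enrichment was 24.8 and 9.55 in wild type and 25.5 and 8.69 in Scml2-KO, replicate 1 first. In RS it was 14.4 and 7.51 in wild type and 21.9 and 5.63 in Scml2-KO. Replicate 1 was the higher of each pair, both genotypes overlapped, and the P7 and adult libraries did not overlap in presence. A two-sided Fisher's exact test of 8 of 8 adult against 0 of 8 P7 libraries gave an adjusted p of 0.00358, Benjamini-Hochberg adjusted over the 3940 genes with a promoter peak in 5 to 11 libraries. By the same test, 8.45% of the genes tested, or 1.54% of all genes, were called with more adult libraries. Of the 10 genes, 7 were tested and 3 were called in that direction: Acr, Spaca3 and Acrbp. With more P7 libraries, 24.7% of the genes tested (4.49% of all) were called and 0 of the 10. The replicates are not stated to come from separate animals, so p-values here measure the spread between libraries, which may be technical. The 8 P7 and the 8 adult libraries each mixed stages, genotypes and replicate numbers, which this test took together. In these bulk fractions, fewer cells of a type and less signal per cell cannot be told apart.

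Acrbp, the proacrosin-binding protein (chromosome 6, TSS at 125049927, + strand), had weak promoter peaks in 2 P7 libraries, where the fold enrichment was 5.43 (Thy1 wild type replicate 1) and 4.79 (cKit Scml2-KO replicate 1). In PS its fold enrichment was 15.5 and 6.53 in wild type and 19.8 and 8.69 in Scml2-KO. In RS it was 6.64 and 4.88 in wild type and 16.7 and 3.90 in Scml2-KO. The P7 values thus lay within the range of the RS values but below all 4 PS values. Presence in 8 of 8 adult against 2 of 8 P7 libraries gave an adjusted p of 0.0247 (Fisher's exact test), with a range of 0.0103 to 0.0724 over the alternatives that gave one. With peaks at a −log10 q of 5 or more the counts were 6 adult against 1 P7 library, which no longer passed the threshold, at an adjusted p of 0.0724 in the exact test.

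Spaca1, Spaca3 and Acrv1, genes of 3 proteins of the acrosomal membranes and matrix, had promoter peaks in 8, 7 and 6 adult libraries and in 5, 0 and 2 P7 libraries. Spaca1 encodes an inner acrosomal membrane protein needed to shape the acrosome (chromosome 4, TSS at 34050067, - strand). Its promoter peak was already listed in 5 of 8 P7 libraries, with fold values of 6.63, 4.59 and 5.56 in Thy1 wild type replicate 1, Scml2-KO replicate 1 and Scml2-KO replicate 2, and at 5.34 and 6.39 in replicate 1 of cKit wild type and cKit Scml2-KO. In PS the fold enrichment was 28.4 and 16.1 in wild type and 41.1 and 13.6 in Scml2-KO. In RS it was 26.0 and 19.9 in wild type and 34.4 and 10.4 in Scml2-KO. All 8 adult values lay above all 5 P7 values, and the PS and RS values overlapped. Among the promoter peaks of its own list, the RS peak lay at the 92.7th, 93.1st and 95.8th percentile in 3 libraries and at the 65.3rd in Scml2-KO replicate 2, and each P7 peak between the 5.83rd and 18.1st. Such percentiles describe lists of different length and were not compared. With peaks in 13 libraries the gene was outside the range that was tested. With every list cut to its 17813 most significant peaks, Spaca1 was in 8 of 8 adult and 0 of 8 P7 libraries, with an adjusted p of 0.00133 in the exact test. The other alternative that gave a value, a −log10 q of 5 or more, gave an adjusted p of 0.0535 in the exact test.

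Spaca3, a lysozyme-like protein of the acrosome (chromosome 11, TSS at 80858389, + strand), had a promoter peak in 0 of 8 P7 libraries. In PS its fold enrichment was 4.65 in wild type replicate 1 and 9.88 and 4.89 in Scml2-KO, with no peak in wild type replicate 2. In RS it was 6.09 and 3.76 in wild type and 28.0 and 6.50 in Scml2-KO. RS Scml2-KO replicate 1 stood above the other 6 values, which ran from 3.76 to 9.88. Presence in 7 adult against 0 P7 libraries gave an adjusted p of 0.00877 (Fisher's exact test, 0.00380 to 0.0842 over the alternatives that gave one). Many of these peaks were weak: at a −log10 q of 5 or more, 4 adult libraries kept one, too few for the test, and equal list lengths also left 4.

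Acrv1 encodes SP-10, a protein of the acrosomal vesicle (chromosome 9, TSS at 36693220, + strand). Its start lies 31 bp from that of 1700027I24Rik on the other strand, all 8 of its promoter peaks were also promoter peaks of that gene, and the signal of the pair cannot be told apart. In PS the fold enrichment was 6.71 and 8.84 in replicate 1 of wild type and Scml2-KO, with no peak in either replicate 2. In RS it was 9.41 and 7.89 in wild type and 16.3 and 5.20 in Scml2-KO. The RS peaks were in all 4 libraries and the PS peaks in the 2 libraries with the longer lists. A further 2 peaks in cKit replicate 1, at a fold enrichment of 8.90 in wild type and 4.26 in Scml2-KO, had summits 973 and 966 bp upstream of the start and did not cover it. Counting them, presence was 6 adult against 2 P7 libraries, with an adjusted p of 0.197 in the exact test. With a window of 500 bp they dropped out, and 6 adult against 0 P7 libraries gave an adjusted p of 0.0229 (exact test), the lowest over the alternatives, which reached 0.598.

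Zpbp, the zona pellucida binding protein of the acrosomal matrix (chromosome 11, TSS at 11462419, - strand), had a promoter peak in 16 of 16 libraries, as did 38.7% of all genes. Its fold enrichment in Thy1 was 30.8 and 21.8 in wild type and 24.5 and 20.7 in Scml2-KO, and in cKit it was 17.8 and 12.9 in wild type and 20.2 and 8.39 in Scml2-KO. In PS the values were 19.1, 12.6, 14.6 and 11.4, and in RS 15.0, 11.3, 18.5 and 10.8, in the same order. The highest 4 values were thus in Thy1 libraries, and the cKit, PS and RS values overlapped. The Zpbp peak was wide, 550 to 1522 bp, and its summit lay downstream of the start in all 16 libraries, by 291 to 452 bp in the 8 P7 libraries and by 128 to 337 bp in the 8 adult libraries. In the other 9 genes the median summit over libraries lay between 67.5 bp upstream and 43 bp downstream of the start.

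**Figure D2:**
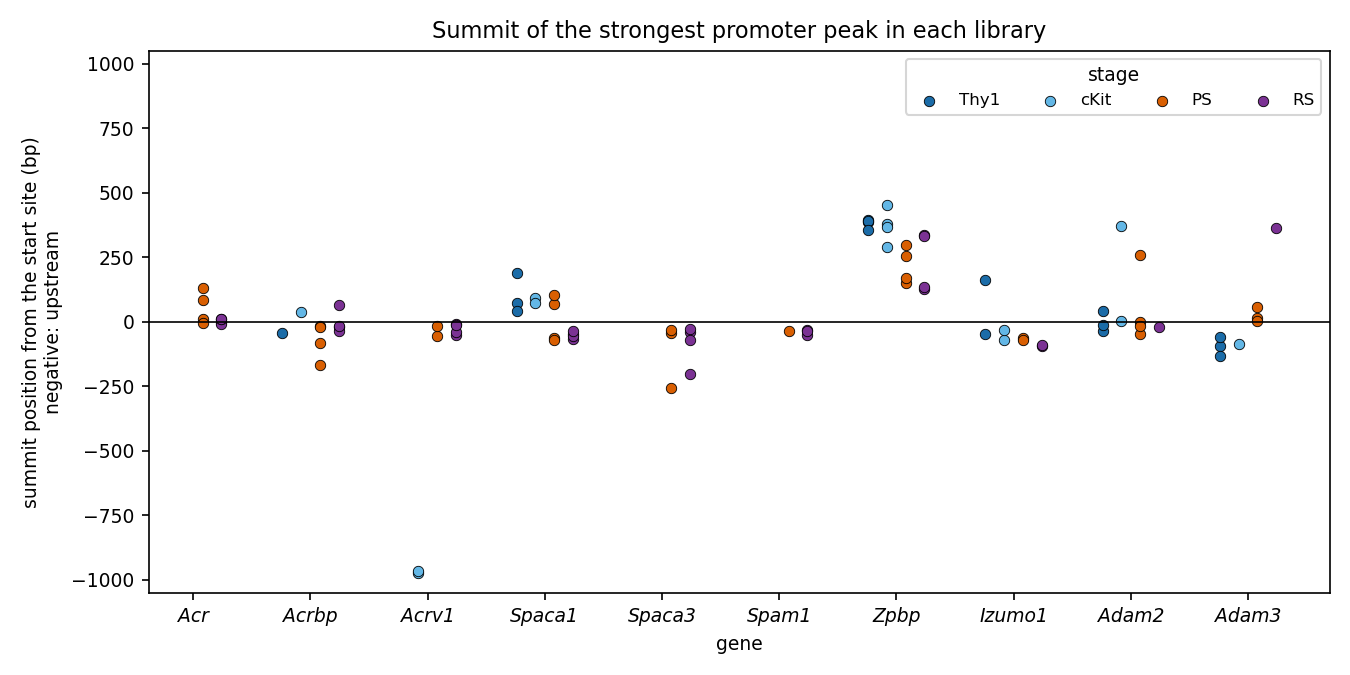
Position of the summit of the strongest promoter peak from the start site (vertical, bp, negative upstream) for each gene (horizontal) and library (points, coloured by stage). The Zpbp summits lie 128 to 452 bp downstream, the 2 cKit summits of Acrv1 966 and 973 bp upstream, and most others close to the start.

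Spam1, the PH-20 hyaluronidase that opens the layer of cumulus cells (chromosome 6, TSS at 24791199, + strand), had a promoter peak in the fewest libraries of the 10 genes. No peak was listed in P7, and in PS only wild type replicate 1 had one, at a fold enrichment of 7.74. In RS the fold enrichment was 7.75 and 3.76 in wild type and 9.08 in Scml2-KO replicate 1. The 4 libraries with a peak were all adult, too few for the test, and the unadjusted p of 4 of 8 against 0 of 8 was 0.0769 by Fisher's exact test.

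Izumo1 encodes the sperm protein that binds the egg receptor JUNO (chromosome 7, TSS at 45621811, + strand), and its promoter peaks did not separate any stage. The fold enrichment was 4.22 in Thy1 wild type replicate 1 and 3.97 in Thy1 Scml2-KO replicate 2, and 5.34 and 7.46 in replicate 1 of cKit wild type and Scml2-KO. It was 7.23 and 9.88 in replicate 1 of PS wild type and Scml2-KO, and 4.98 and 7.95 in replicate 1 of RS. Each stage thus had 2 of 4 libraries with a peak, and 7 of the 8 peaks were in replicate 1, the longer lists. Presence was 4 of 8 in P7 and 4 of 8 in adult libraries, with an adjusted p of 1 in the exact test. With lists of equal length, 1 PS peak was left.

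Adam2 and Adam3 were the 2 genes with more PS than RS libraries, and both had peaks in P7. Adam2 encodes fertilin beta, a surface protein of sperm adhesion and migration (chromosome 14, TSS at 66077733, - strand). In Thy1 its fold enrichment was 8.44 and 3.27 in wild type and 5.09 in Scml2-KO replicate 1, and in cKit it was 5.93 in wild type replicate 1 and 4.20 in Scml2-KO replicate 2. In PS it was 14.5 and 4.52 in wild type and 13.0 and 7.06 in Scml2-KO, and in RS a peak was listed in Scml2-KO replicate 1 alone, at 7.57. The PS values of replicate 1 stood above all others, and the remaining PS values overlapped those of Thy1.

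Adam3, or cyritestin, is the ADAM protein that sperm need to enter the oviduct (chromosome 8, TSS at 24725825, - strand). In Thy1 its fold enrichment was 8.44 and 6.00 in wild type and 5.09 in Scml2-KO replicate 1, and in cKit it was 5.86 in Scml2-KO replicate 1. In PS it was 13.9 in wild type replicate 1 and 17.7 and 6.52 in Scml2-KO, and in RS 5.30 in Scml2-KO replicate 1. The Adam3 summit in that RS library lay 362 bp downstream of the start, whereas the 3 PS summits lay 3 to 58 bp downstream. Both genes were in as many P7 as adult libraries, 5 and 5 for Adam2 and 4 and 4 for Adam3, with an adjusted p of 1 each in the exact test.

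Between P7 and adult cells, the 10 genes together had a promoter peak in 30 of 80 gene and library pairs in P7 (37.5%) and in 62 of 80 in adult cells (77.5%). The shares over all genes were 65.8% in P7 and 59.9% in adult cells. Per library, 1 to 6 of the 10 genes had a promoter peak in P7 and 5 to 10 in adult cells, so the ranges overlapped. All 10 genes had a peak in at least 1 adult library and 7 in at least 1 P7 library. The median difference was 3.5 libraries of 8 toward adult cells, beside 0 over all genes, and 6 of the 10 genes had more adult libraries, beside 16.1% of all genes. More P7 libraries were found for 0 of the 10, beside 26.8% of all genes. With lists of equal length the ranges did not overlap, 1 to 2 genes per P7 library and 4 to 8 per adult library, while the share of all genes with a promoter peak was 46.0% to 52.3% in P7 and 42.9% to 51.4% in adult libraries. In P7 these were Zpbp in 8 libraries and Adam2 in 1. Within the libraries numbered replicate 1, Acr and Spaca3 were in 4 of 4 adult and 0 of 4 P7 libraries and Acrbp in 4 and 2. Of 21651 genes, 426 were called there toward adult cells, with Acr and Spaca3 among them, and 757 toward P7. Within replicate 2, Acr and Acrbp had 4 and 0 and Spaca3 3 and 0, and 0 genes passed the adjusted threshold there.

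**Figure D3:**
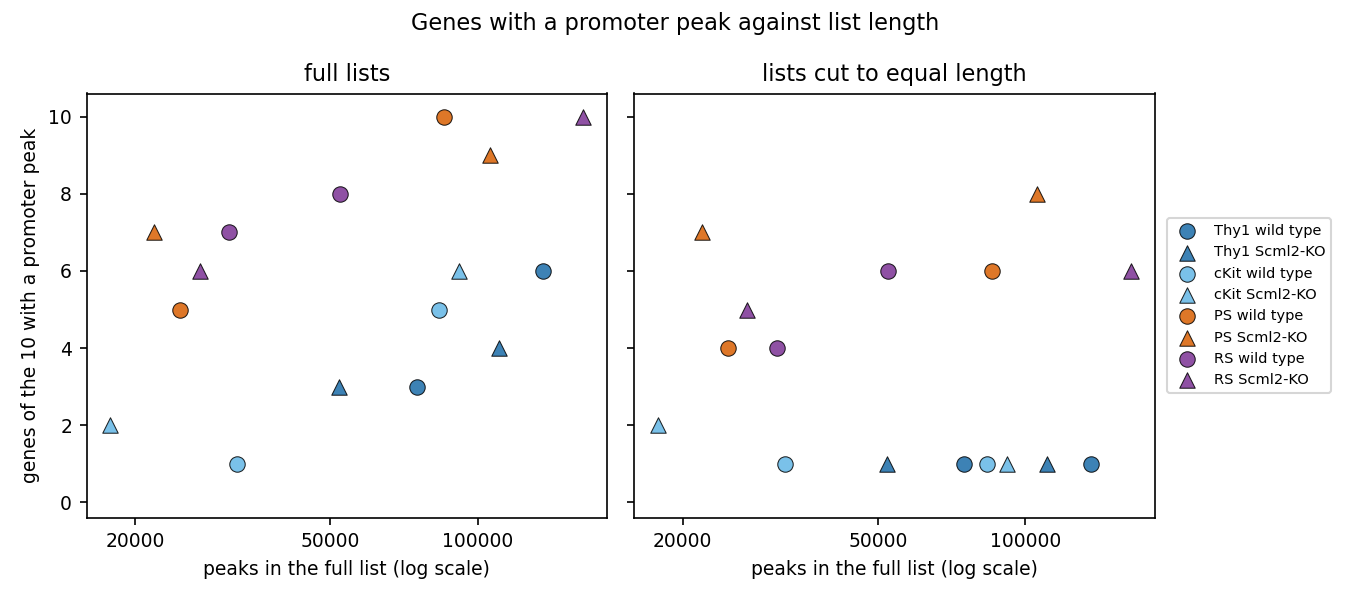
Number of the 10 genes with a promoter peak (vertical) against the number of peaks in the full list of the library (horizontal, log scale), for the full lists (left) and with every list cut to its 17813 most significant peaks (right); each point is a library, coloured by stage and shaped by genotype. At equal length the P7 libraries have 1 to 2 of the genes and the adult libraries 4 to 8.

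Markers of other testis cells also differed in number between P7 and adult libraries. Over all genes, 50.3% to 73.6% had a promoter peak in P7 libraries and 54.4% to 68.6% in adult ones. More P7 than adult libraries were found for 26.8% of all genes, and 4.49% were called in that direction. Of 9 Sertoli cell markers, 4 to 9 had a promoter peak in P7 libraries and 0 to 6 in adult ones. Rhox8 and Cst12 were in 7 P7 and 0 adult libraries each, and Amh in 5 and 5. For Leydig cell markers the ranges were 0 to 5 of 7 in P7 and 0 to 2 in adult cells, for peritubular markers 2 to 6 of 6 and 1 to 5, for blood and immune markers 0 to 3 of 6 and 0 to 1, and for endothelial markers 2 to 3 of 5 and 0 to 1. The peritubular marker Des went the other way, with 7 P7 and 8 adult libraries. Cyp11a1, Hsd3b1, Ptprc, Adgre1, Hba-a1, Pecam1 and Tie1 had a promoter peak in 0 of 16 libraries. The part of such cells in the counts of the 10 genes was not tested.

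Between PS and RS, the 10 genes had a promoter peak in 31 of 40 gene and library pairs at each stage (77.5%). The shares over all genes were 60.4% in PS and 59.4% in RS. With lists of equal length the pairs were 25 of 40 in PS (62.5%) and 21 of 40 in RS (52.5%). Over all genes the shares were then 49.6% and 45.8%. No gene of the 10 had a peak in 4 of 4 libraries of a stage and 0 of 4 of the other. Over all genes, 0.194% had that pattern toward PS and 0.125% toward RS. At 4 against 4 libraries the smallest exact p is 0.0286, and by Fisher's exact test 69 genes reached an unadjusted p under 0.05 and 0 an adjusted one, with 0 of the 10 in either. Acr, Acrbp, Spaca1, Zpbp and Izumo1 had as many PS as RS libraries, beside 49.5% of all genes that had a peak in as many of each. Acrv1 with 2 and 4 libraries, Spaca3 with 3 and 4 and Spam1 with 1 and 3 had more RS libraries, beside 12.5% of all genes. Adam2 with 4 and 1 and Adam3 with 3 and 1 had more PS libraries, beside 15% of all genes. The single RS library of both ADAM genes was Scml2-KO replicate 1, the longest list. Without it Adam2 was in 4 of 4 PS and 0 of 3 RS libraries. Its adjusted p was 0.274 in the exact test, 0.274 to 0.871 over the alternatives that gave one. Over all genes, 200 then separated in either direction, beside 69 with that library included. With lists of equal length Acrv1 was in 0 of 4 PS and 4 of 4 RS libraries. Its adjusted p was 0.0697 in the exact test, the only alternative that gave one. At that length 74 of 21651 genes had the full pattern toward RS and 250 toward PS, beside 27 and 42 with the full lists. Adam2 and Adam3 were then in 3 PS and 0 RS libraries each.

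**Figure D4:**
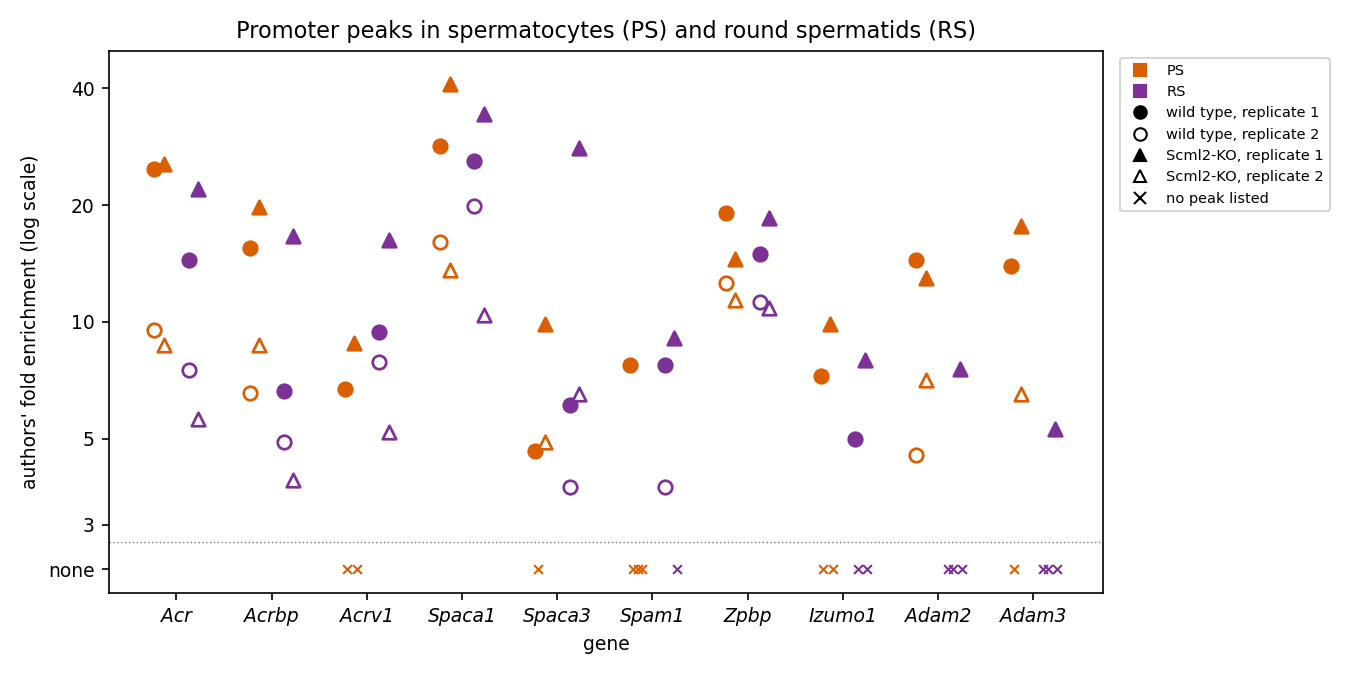
Authors' fold enrichment (vertical, log scale, crosses at the bottom for libraries with no peak) of the promoter peak of each gene (horizontal) in PS and RS, coloured by stage, shaped by genotype and filled for replicate 1. PS and RS values overlap for the 7 genes with 2 or more peaks at both stages, and the single RS points of Adam2 and Adam3 are both Scml2-KO replicate 1.

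From cKit to PS, the step that spans entry into meiosis and also the change from P7 to adult, Acr had a peak in 4 of 4 PS and 0 of 4 cKit libraries, as did 1.03% of all genes, with an adjusted p of 0.0660 in Fisher's exact test (0.0384 to 0.125 over the alternatives that gave one). It was the only 1 of the 10 genes with that pattern, and 0 had the reverse, which 1.3% of all genes had. Spaca1, Spaca3 and Acrbp went from 2, 0 and 1 cKit libraries to 4, 3 and 4 PS libraries. With lists of equal length Spaca1 and Acrbp joined Acr, each with 0 cKit and 4 PS libraries. Their adjusted p was 0.0384 in the exact test, the only alternative that gave one for Spaca1 and the lowest for Acrbp, which reached 0.284. At that length 644 of 21651 genes had this pattern toward PS and 467 toward cKit, beside 224 and 281 with the full lists. Between Thy1 and cKit, 0 of the 10 genes separated, beside 0.236% of all genes toward Thy1 and 0% toward cKit, and in that exact test 51 genes reached an unadjusted p under 0.05 and 0 an adjusted one.

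No difference between genotypes was called among the 10 genes. Counted over gene and library pairs, a promoter peak was listed in 45 of 80 in wild type (56.25%) and in 47 of 80 in Scml2-KO (58.75%). The shares over all genes were 63.1% in wild type and 62.6% in Scml2-KO. The largest differences among the 10 genes were Spam1, with 3 wild-type and 1 Scml2-KO libraries, and Adam3, with 3 and 5. In a two-sided exact test that permuted genotype within stage, 0 of 822 genes (0%) passed the adjusted threshold and 15 reached an unadjusted p under 0.05. Izumo1 was the only 1 of the 10 that could reach such a p, with an adjusted p of 1 in the exact test. Within a stage, 0 of the 10 genes had a peak in 2 of 2 libraries of a genotype and 0 of 2 of the other, at any of the 4 stages. Of all genes, 0.771% in Thy1, 0.12% in cKit, 0.845% in PS and 0.393% in RS had that pattern toward wild type, and 0.0693%, 0.115%, 0.656% and 2.27% toward Scml2-KO. The test had little reach for these genes, so similar behaviour of the genotypes is not shown.

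Away from the promoters, the authors annotated peaks to the 10 genes in 132 merged regions, beside 17 promoter regions. Of the 132, 107 were open in a single library and 13 in 3 or more, and 82 lay in introns. Among all 149 regions, 5 were called with more adult than P7 libraries and 0 the reverse, beside 1.91% and 6.15% of all regions in the data. Regions open in 5 to 11 libraries were tested, which were 10 of the 149, and of all the regions tested 14.5% were called toward adult cells and 46.8% toward P7. These 5 were the start regions of Acr, Acrbp, Spaca3 and Acrv1 and a region upstream of Spaca3. Only the last is among the 132 regions away from the promoters, a single region beside 1.91% of all regions. The Acrv1 start region (chr9:36692928-36693394), counted without the upstream cKit peaks, was open in 6 adult and 0 P7 libraries, with an adjusted p of 0.0199 in the exact test.

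The region upstream of Spaca3 (chr11:80851949-80853876) has its middle 5476 bp before the start. Its fold enrichment was 4.68 and 3.80 in PS Scml2-KO, 6.09 in RS wild type replicate 1 and 19.7 and 5.20 in RS Scml2-KO, with no peak in P7. The highest value was again in RS Scml2-KO replicate 1, and 4 of the 5 libraries were Scml2-KO. Presence in 5 adult against 0 P7 libraries gave an adjusted p of 0.0418 (exact test, 0.0248 to 0.0926 over the alternatives that gave one), which was lost when PS Scml2-KO replicate 1 or 2, RS wild type replicate 1 or RS Scml2-KO replicate 2 was left out, at 0.0503 to 0.0524. The call was also lost at a −log10 q of 5 or more, where 3 adult libraries kept a peak, with lists of equal length, where 2 did, and in each genotype alone, with 1 wild-type and 4 Scml2-KO libraries.

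An intronic region of Zpbp (chr11:11454964-11455356), 7259 bp downstream of the start, had more P7 than adult libraries. Its fold enrichment was 6.03, 7.63, 6.11 and 5.56 in the 4 Thy1 libraries, 5.93, 4.11 and 4.26 in 3 cKit libraries and 3.61 and 4.16 in replicate 1 of PS wild type and Scml2-KO, with none in RS. All Thy1 values lay above both PS values. With 7 P7 and 2 adult libraries it missed the threshold, at an adjusted p of 0.0607 in the exact test. Between PS and RS, 0 of the 149 regions separated, beside 0.0946% of all regions toward PS and 0.0669% toward RS, and in that exact test 594 regions reached an unadjusted p under 0.05 and 0 an adjusted one.

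Related genes, in 5 lists of acrosome, zona, fusion and ADAM genes, are set beside the 10 genes as counts. For acrosome biogenesis and structure, 5 of 21 genes had more adult than P7 libraries at an adjusted p under 0.05 in Fisher's exact test, beside 1.54% of all genes, and the median difference was 4 libraries, beside 0 over all genes. Of these 21 genes 9 were tested, and of all the genes tested 8.45% were called in that direction. They were the actin-like genes Actl7a and Actl7b, Spesp1 of the equatorial segment, the acrosomal gene Fam170b and Fam209, a partner of Dpy19l2. Actl7a and Spesp1 were in 8 adult and 0 P7 libraries, at a median fold enrichment in adult cells of 5.72 and 8.64, Fam170b in 7 and 0, Fam209 in 6 and 0 and Actl7b in 8 and 2. For acrosomal enzymes, matrix and zona binding, 1 of 19 passed (3 tested), beside the same 1.54% of all genes, and a single gene is little to set against that share. It was Zp3r of the acrosomal matrix, in 6 adult and 0 P7 libraries, and the median difference of the list was 3. Other genes of that list, such as Sp17 and B4galt1, had a promoter peak in all 16 libraries.

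For sperm-egg fusion, 2 of 10 passed (6 tested), beside 1.54% of all genes: Izumo3 and Llcfc1 (named 1700034O15Rik in the files), each in 8 adult and 0 P7 libraries, with a median difference of 2. Both differ in that from Izumo1, in 4 and 4 libraries, a difference that was not tested. For the sperm ADAM genes, 1 of 15 passed (5 tested), again a single gene beside 1.54% of all genes. It was Adam24, in 6 adult and 0 P7 libraries, and the median difference of the list was 3. For ADAM chaperones and maturation, 3 of 10 passed (5 tested), beside 1.54% of all genes, with a median difference of 2: Pdilt, a testis chaperone needed for ADAM3, in 7 and 0 libraries, Pmis2 (4930479M11Rik), in 6 and 0, and Ly6k, in 7 and 1. In each of the 5 lists 0 genes passed toward P7, beside 4.49% of all genes and 24.7% of the genes tested.

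Between PS and RS, 1 of the 75 genes of the 5 lists separated, beside 0.194% of all genes toward PS and 0.125% toward RS. It was Adam1b, which encodes a fertilin alpha subunit, with a promoter peak in 4 of 4 PS and 0 of 4 RS libraries and an adjusted p of 0.361 in the exact test. Adam2, whose product pairs with fertilin alpha, had 4 and 1. From cKit to PS, 6 of the 75 genes had a peak in 0 of 4 cKit and 4 of 4 PS libraries, beside 1.03% of all genes. These were Actl7a, Spesp1, Izumo3, Llcfc1, Adam1b and Pmis2, at the adjusted p of 0.0660 in the exact test that Acr had too.

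**Figure D5:**
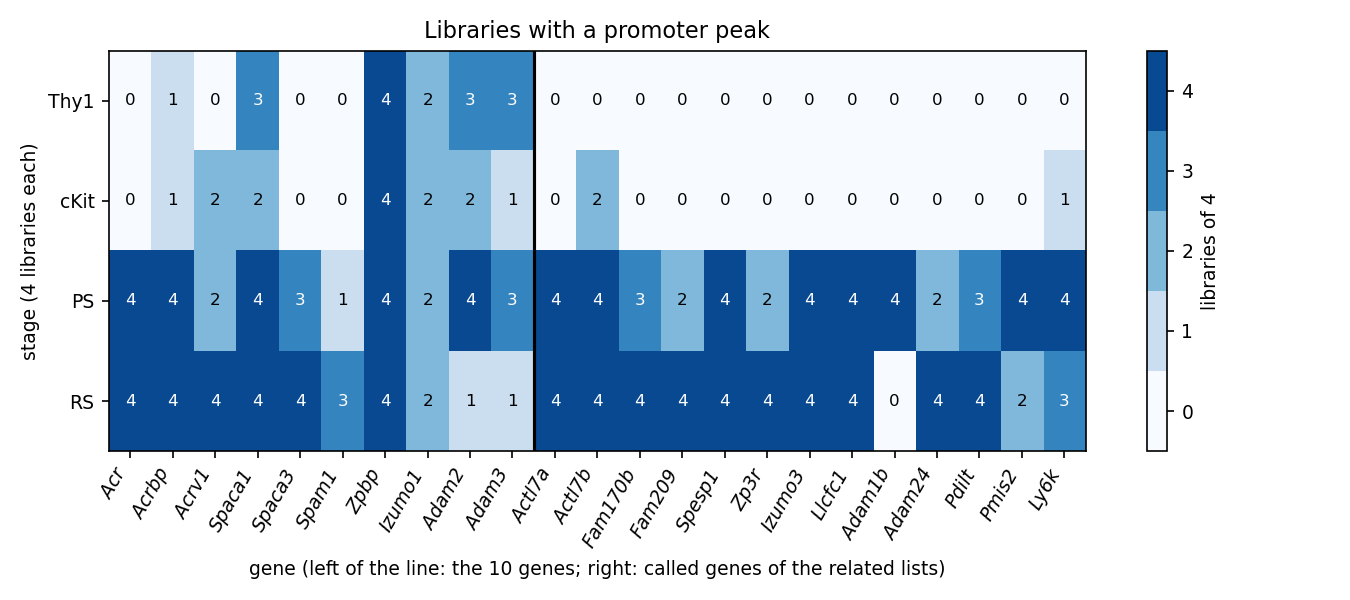
Number of libraries of 4 with a promoter peak at each stage (vertical) for the 10 genes (left of the line) and for the genes of the related lists that were called in a comparison (right of it). Adam1b has 4 PS and 0 RS libraries, and Adam2 and Adam3 have 1 RS library each.

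The promoters whose fold enrichment followed that of a member most closely over the 16 libraries, counting 0 where no peak was listed, differed between the genes. These correlations, over libraries that share list length and stage, are descriptions. For Acr the closest were Kcnu1 (Pearson's r 0.988), a potassium channel gene of sperm, Adcy10 (0.987) and Rd3 (0.985). For Spaca3 they were Pdilt (0.996), Sgms2 (0.980) and St8sia3 (0.979), and for Acrbp Gpat2 (0.978), 1700123L14Rik (0.977) and Tdrd9 (0.965), a helicase gene of the piRNA pathway. Spam1 was followed by 4930432K09Rik (0.997), 1700101O22Rik (0.993) and 4930486I03Rik (0.991), each with peaks in the same numbers of PS and RS libraries, 1 and 3.

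Adam2, Adam3 and Izumo1 had other kinds of neighbours in this measure. The closest to Adam2 were Trp53rk (0.944), Optn (0.914) and Agtrap (0.912), and to Adam3 Mpv17l (0.947) and A930006K02Rik (0.938), all 5 with a promoter peak in 16 libraries. Izumo1 was closest to Gm14139 (0.901), Cryga (0.898) and Plekhg4 (0.886). Acrv1, beside the gene that shares its promoter, was closest to Actl11 (0.923) and C530008M17Rik (0.911), each in 2 PS and 4 RS libraries as Acrv1 was.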

How the data were processed

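ATAC-seq peak lists of 16 libraries (8 groups of 2) were analysed, 1 list per library and none pooled. The submitters' processing notes name Bowtie 1.1.1, MACS2 2.1.0.20140616 and mm10, with the caller's options not given in the sources used here. Fold enrichment is a ratio deposited by the authors, pileup a signal deposited by the authors (coverage at the summit, not scaled to depth), and the −log10 values of p and of q, like the peak length in bp, are named so per the file headers. Read depth is unknown, and only list length bears on precision.

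Of 1431525 summit lines, 576 mitochondrial ones were left out and lines of the same peak were joined, giving 1111092 peaks. Start sites came from the deposited annotation (23758 positions of 21651 genes, 1327 of them matched by position through the RefSeq table of GRCm38.p6). Peaks overlapping by 1 bp or more were merged into 367750 regions. P7 and adult libraries (8 against 8) were compared by two-sided Fisher's exact tests on features with a peak in 5 to 11 libraries, stages (4 against 4) by full separation with the exact test beside it, adjusted over features with a peak in 4 of 8 libraries, and genotype by an exact test permuted within stage. All p-values were adjusted over all features that could be tested (threshold 0.05). Coordinates count from 1. Python 3.11.15, pandas 2.3.3, NumPy 2.4.6, SciPy 1.17.1 and matplotlib 3.10.9 were used, and the tests were tested on simulated data.

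All 10 genes are described. From the related lists, genes called in a comparison are named, up to 6 per list by p and then fold, and for each gene with a promoter peak in 4 to 12 libraries the 3 promoters with the highest correlation. Sp17, B4galt1 and the Zpbp intron were named after their values were seen. Fimp, Dcst2 and Spaca5 were not matched and are not analysed here. The 10 genes and the lists were chosen with earlier results of these data known. Alternatives were the window (500 bp, summit inside 1 kb, the authors' gene names), a −log10 q of 5, lists of equal length, each genotype alone, a replicate block, each library left out and, chosen after seeing the data, each replicate number alone.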

Additional observations from a re-analysis of the deposited data

Results flagged for a closer look

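The fold enrichment of the Spaca3 promoter peak in RS Scml2-KO replicate 1 was 28.0, while the other 3 RS libraries ran from 3.76 to 6.50. Its gap to the nearest of them, 21.5, was 0.887 of the whole range of the 4 values. The library had the longest list of the series. Of the 24 groups of 4 to 10 values looked at in this way it was the only 1 set apart, and chance sets apart about 1 in 20 such groups.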

How the results depend on the processing

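Of the single-gene and single-region results under all alternatives, 996 kept their direction and side of the threshold, 20 lost and 18 gained a call, and 0 reversed. Many of the 996 could not be tested, so the count does not measure robustness. For Zpbp between P7 and adult cells, 0 of 26 alternatives gave an adjusted p. For the 3 genes called there, the call was lost in 2 (Acr), 5 (Acrbp) and 5 (Spaca3) of 26 alternatives. Fold enrichments of separate lists were not tested. The depth of the libraries is unknown, so whether a missing peak would appear at higher depth was not tested. The cause of the changes that follow was not tested, apart from what their construction sets. Stage steps were called by full separation, which fewer libraries meet more easily, so counts over 2 against 2 libraries (smallest exact p 0.333) or with a library left out are a looser call than over 4 against 4 and do not show a stronger difference. For P7 against adult cells, a genotype or replicate number alone leaves 4 against 4 libraries, which cannot reach an exact p below 0.0286. For P7 against adult cells (1306 genes called, 3 of them described here), equal list lengths gave 2136 genes, Scml2-KO libraries alone 0 genes and 0 of the 10, wild type alone 1 of the 10 (Acr), a −log10 q of 5 or more 1 (Acr), and replicate 2 alone 0 and 0. Leaving out each library gave 1331 to 2418 genes (the highest without cKit Scml2-KO replicate 2) and 3 of the 10 each time. For PS against RS (69 genes, 0 of the 10), the stricter q gave 105 genes, equal lengths 324 and 1 (Acrv1), wild type alone 633 and 1 (Adam2), Scml2-KO alone 439, replicate 1 alone 644, and replicate 2 alone 828 and 2 (Acrv1, Adam2). Leaving out a library gave 92 to 200 genes and 0 to 1 (200, and Adam2, without RS Scml2-KO replicate 1), and each library except PS Scml2-KO replicate 1 and PS wild type replicate 2 moved the count by over 1.5 times. For cKit against PS (505 genes, 1 of the 10), the stricter q gave 2 of the 10, equal lengths 1111 genes and 3, wild type alone 1622 and 2, Scml2-KO alone 924 and 2, replicate 1 alone 2318 and 2, and replicate 2 alone 1516 and 3. Leaving out a library gave 544 to 888 genes (the highest without cKit Scml2-KO replicate 2) and 1 to 2 (with Acrbp without cKit Scml2-KO replicate 1, with Spaca3 without PS wild type replicate 2). For Thy1 against cKit (51 genes, 0 of the 10), wild type alone gave 442 genes and 1 (Adam3), Scml2-KO alone 192, and leaving out a library 52 to 149 (149 without Thy1 Scml2-KO replicate 2, and also over 1.5 times the count without replicate 1 of cKit Scml2-KO or wild type or Thy1 wild type replicate 2). For genotype every setting gave 0 genes. For regions, P7 against adult cells (29640 called, 5 of them of the 10 genes) gave 15461 with the stricter q, 7986 and 3 with equal lengths, 11748 and 1 in wild type, 0 and 0 in Scml2-KO, and 19220 to 42889 and 4 to 6 with a library left out (under the count by over 1.5 times without replicate 1 of PS or RS wild type). PS against RS (594 regions, 0 of the 10 genes) gave 1357 and 1 with equal lengths, 4740 and 2 in wild type, 3976 and 1 in Scml2-KO, and 757 to 1423 and 0 to 1 with a library left out (each library except PS Scml2-KO replicate 1 moved the count by over 1.5 times).

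Libraries of the same replicate number tended to deviate together. Over 28 pairs of groups, the correlation of their deviations ran from -0.00390 to 0.426, with a median of 0.129 and 18 over 0.1. The main tests did not take the replicate number into account. With the replicate number as a block, P7 against adult cells called 2241 genes and the same 3 of the 10, and 37582 regions, 6 of them of the 10 genes. Under the block 0 genes were called for genotype, and the steps between stages could not go below an exact p of 0.0556.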
